A study of Homo sapiens with 13 samples.

Results

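Single tumour cells carrying a phosphomimetic RKIP were set against cells carrying an empty vector, after both had grown as mammary tumours in mice. RKIP, the Raf kinase inhibitor protein encoded by PEBP1, binds RAF kinases and holds back the signal from RAS through MEK to ERK, and it is known as a suppressor of metastasis in breast cancer models. Phosphorylation by protein kinase C moves it from RAF to GRK2, a kinase that switches off G protein-coupled receptors. The ERK cascade drives immediate-early genes such as FOS and EGR1 and its own feedback inhibitors, such as the DUSP phosphatases and the SPRY proteins.

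Cells were taken from the single-cell count table by the start of their names, which gives the arm, and by the end of their names, which parts them into 3 replicate experiments. Each arm and ending was 1 tumour, so 6 tumours were compared, CTRL 1 to 3 with the vector and RKIP 1 to 3 with the mutant. Of 1569 cells in the table, 1568 had at least 1000 detected genes and were used, 772 from CTRL and 796 from RKIP tumours. They come from 3 of the 13 samples of the series, and each of those samples pools 1 tumour of each arm. The numbers 1, 2 and 3 were given to the endings here and are arbitrary.

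All cells derive from BM1, a bone-homing subline of MDA-MB-231, which was established from a human breast cancer. The stable lines BM1-VC (vector control, CTRL) and BM1-RKIP-S153E (RKIP) were generated by another group, and the labels do not say whether either is 1 clone. Whether the lines already differed before they received the constructs is not known, and such a difference and the effect of RKIP cannot be told apart. Athymic nude mice, which lack mature T cells, received 1000000 cells in the mammary fat pad, and tumours were taken after 3 weeks. Tumours were dissociated, mouse cells and dead cells were removed, and single cells were captured on the Fluidigm C1 HT microfluidic chip. The age of the mice and the promoter of the construct are not given in the sources used here.

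The transcript of the construct has its own entry in the table, ratpebp1, and by that name comes from the rat gene. Its substitution S153E puts glutamate in place of the serine that protein kinase C phosphorylates. Human PEBP1 is shown around that site, since it is the copy the tumour cells carry themselves, with the codon of that serine in capitals. The stretch is chr12:118144684-118144710 on the plus strand of GRCh38, in the coding part of exon 4 of 4 (GENCODE 29).
PEBP1: ttcaaggtggcgTCCttccgtaaaaag

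The 6 tumours gave 247, 267 and 258 cells in CTRL 1 to 3 and 266, 274 and 256 in RKIP 1 to 3, with 19516061 to 34568923 counts per tumour. Experiment 1 stood apart in both arms. Its cells had median counts of 95289 (CTRL) and 90591 (RKIP), against 55704 to 73751 in the other 4 tumours. Its cells nevertheless held the fewest genes at a common 20000 counts per cell, with medians of 2097 and 2292.5 against 3131 to 3333. CTRL cells always filled chip columns 1 to 10 and RKIP cells columns 11 to 20, so chip position and arm cannot be told apart. VIM, CD44 and the other 8 expected markers of BM1 cells were all counted. ERBB2, which should be low in them, was 3.34 to 19.1 CPM (counts per 1000000 of the scaled library). The hormone receptor genes ESR1 and PGR had no entry in the count table. Among 42 markers of host cells, 8 were counted. The host is the mouse, while the processing notes name only human genome builds. How far mouse transcripts were counted under the human names is not known, so low values here do not show that host cells were few. The largest sum of a host list was 128 CPM, for leukocytes in CTRL 1, and came mostly from LAPTM5, while their defining marker PTPRC had no entry in the count table.

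Rat Pebp1 marked the RKIP tumours to very unequal degrees. Its summed level was 0, 0.608 and 0.295 CPM in CTRL 1 to 3 and 11.9, 205 and 126 CPM in RKIP 1 to 3. All RKIP tumours lay above all CTRL tumours, and RKIP 1 was far below the other RKIP tumours. The fitted difference was 8.64 on the log2 scale (SE 0.39, edgeR adjusted p = 0.00377). Since CTRL 1 is at 0, this fitted value is no bound, and its SE, derived from the test statistic, is no measure of its precision. The call did not hold without the block (edgeR adjusted p = 0.22), without experiment 2 (0.0915) or without experiment 3 (0.193), nor when any single tumour but RKIP 1 was left out (0.419 to 1). At 20000 counts per cell the share of cells with the transcript was 3.85%, 29.3% and 41.1% in RKIP 1 to 3. In CTRL cells the shares were 0%, 1.63% and 1.27%. Among positive cells the mean count was 9.70, 11.1 and 5.48 in RKIP 1 to 3, so the tumours differed more in how many cells were positive than in the counts of those cells. Human PEBP1 was 366, 301 and 300.1 CPM in CTRL and 274, 270.2 and 279 CPM in RKIP tumours. The arms did not overlap, but the difference of -0.22 (SE 0.12, edgeR adjusted p = 0.973) did not pass the test.

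Summed levels were compared over all genes with edgeR's quasi-likelihood test, with the experiment as a block and p-values adjusted by Benjamini-Hochberg over 14528 genes. The transgene was the 1 gene called at an adjusted p under 0.05, which is 0.00688% of the genes tested, and 0 human genes were called (smallest edgeR adjusted p = 0.973). At an unadjusted p under 0.05 there were 582 genes (4.01%), 320 higher (2.2%) and 262 lower (1.8%) in RKIP tumours. The 3 tumours of one arm lay beyond the 3 of the other for 1293 genes (8.9%), 644 higher (4.43%) and 649 lower (4.47%). DESeq2 on the same sums called 61 of 13119 genes (0.465%), 34 higher and 27 lower. The p-values measure the spread between these tumours. Single cells weigh heavily in such sums, since for 4971 of the genes tested 1 cell held over 50% of the counts of at least 1 tumour.

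The share of cells with a count is less exposed to single cells, and it was compared as a second measure that was added after the sums had been seen. Cells were thinned to 20000 counts, and the number of cells with at least 1 count was tested with edgeR over 10443 genes. Each tumour was scaled by its total of such numbers over genes, not by its number of cells. The fitted log2 ratios are therefore relative to that total and are not plain ratios of the percentages. The test called 15 genes (0.144%), 11 higher (0.105%) and 4 lower (0.0383%), of which 14 are human genes. At an unadjusted p under 0.05 there were 541 genes (5.18%), 260 higher (2.49%) and 281 lower (2.69%). For 140 genes the arms did not overlap (1.34%), 68 higher (0.651%) and 72 lower (0.689%). FAM133A, PTPRN2 and OR7C1 passed in the main fit and in all 8 alternatives run, while each other called human gene lost its call in at least 3 of them. SPOCK1, TLE1, BST2, PPP2R3C and SERPINB9 were called in only 2 of the 9 settings, the main fit included. With the number of cells as the only scaling, 4 genes were called, namely these 3 and the transgene. The main fit estimated a dispersion of 9.77e-05 with 136 prior degrees of freedom. A dispersion so small adds little to the counting error of cells, so cells act much like replicates in this test. Its p-values rest mostly on a spread common to all genes and little on the spread of each gene between its own tumours. The exact 95% intervals of the shares named here reach at most 6.54 percentage points to either side, taken as the mean of both sides, and cover counting error only.

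**Figure D1:**
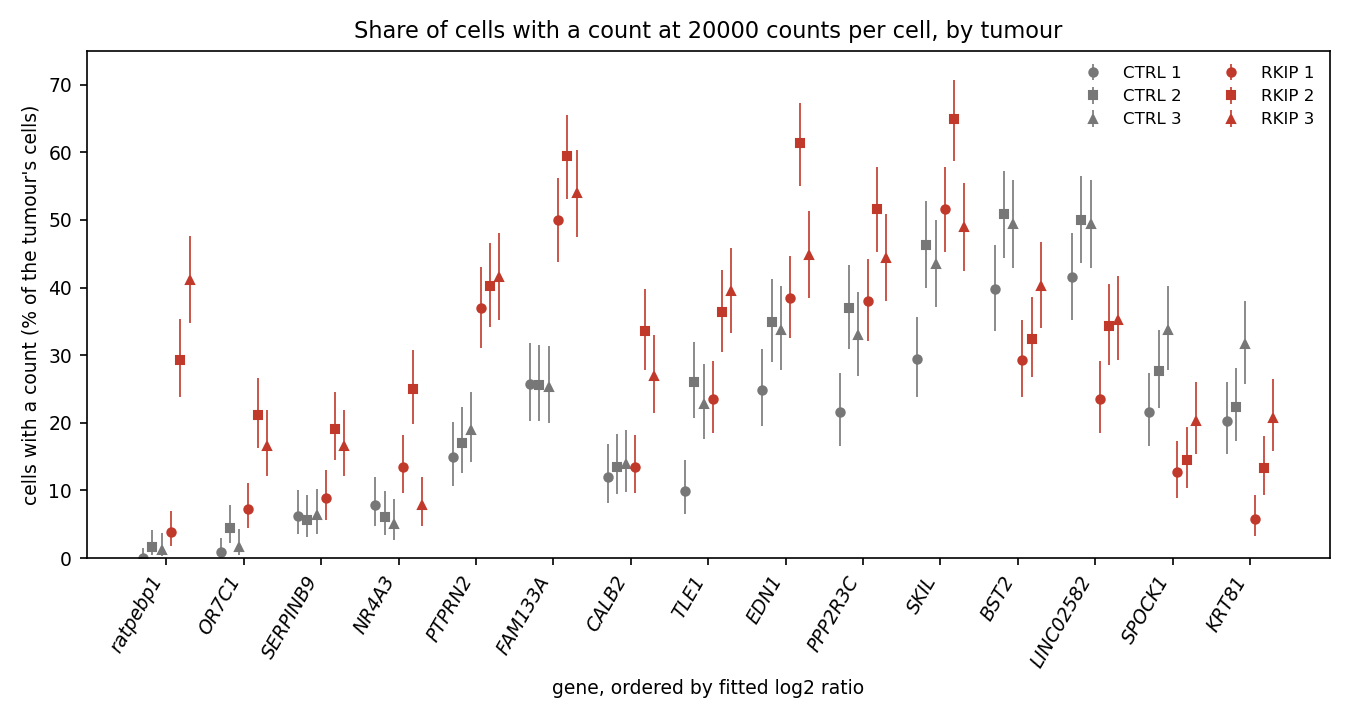
Percentage of each tumour's cells with a count of the 15 genes called on this measure, at 20000 counts per cell. Grey marks are CTRL and red marks RKIP tumours, circles, squares and triangles are experiments 1, 2 and 3, and bars are exact 95% intervals. FAM133A stands at 25.3% to 25.7% in CTRL and 50% to 59.4% in RKIP tumours.

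FAM133A, PTPRN2 and OR7C1 were counted in more cells of every RKIP tumour than of any CTRL tumour. FAM133A, an X-linked gene of the cancer-testis class, which germ cells and tumours express, had a count in 25.7%, 25.6% and 25.3% of cells in CTRL 1 to 3. In RKIP 1 to 3 it had one in 50%, 59.4% and 53.9% of cells. The share was higher in each experiment, and the CTRL tumours differed from each other by less than 1 percentage point. The fitted log2 ratio was 1.05 (SE 0.12, edgeR adjusted p = 1.68e-11), and with the number of cells as the only scaling it was 1.09 (edgeR adjusted p = 0.00148). Positive cells also held more counts, with means of 3.34, 4.10 and 5.05 in CTRL and 8.33, 5.57 and 6.95 in RKIP tumours. Its summed level was 44.7, 59.2 and 62.5 CPM in CTRL and 215, 162 and 144 CPM in RKIP tumours. That is a log2 fold change of 1.64 (SE 0.24) with an edgeR adjusted p = 0.973, and DESeq2 called it (adjusted p = 3.21e-09). In summed level the order of the RKIP tumours was not that of the transgene, since RKIP 1 had the least rat Pebp1 and the most FAM133A. In share of cells RKIP 1 was the lowest RKIP tumour for both, at 3.85% for rat Pebp1 and 50% for FAM133A. A relation between the 2 transcripts was not tested. Each arm filled its own 10 chip columns, so the arms cannot be compared within a column. The median of those columns was 33.4, 53.6 and 54.2 CPM in CTRL and 180, 155 and 133 CPM in RKIP tumours. Single columns overlapped between arms, with up to 168 CPM in CTRL 3 and down to 53.1 CPM in RKIP 3, and no column was at 0.

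PTPRN2, a phosphatase-like membrane protein of secretory vesicles, was counted in 14.9%, 17.1% and 18.99% of CTRL cells and in 36.9%, 40.2% and 41.5% of RKIP cells. The arms were well apart and each was narrow (log2 ratio 1.17, SE 0.16, edgeR adjusted p = 4.71e-08). Counts per positive cell overlapped, at 2.14 to 3.11 in CTRL and 2.51 to 3.33 in RKIP tumours, so the difference lay in the number of positive cells. OR7C1, a gene of the olfactory receptor family, was rare in CTRL cells, at 0.830%, 4.47% and 1.69%, and was counted in 7.31%, 21.1% and 16.6% of RKIP cells. The log2 ratio was 2.66 (SE 0.37, edgeR adjusted p = 1.26e-07). Its sums were 0.729, 7.09 and 2.36 CPM against 37.7, 37.9 and 36.6 CPM, but a single cell held 80.4% of the counts in RKIP 1 and 70.3% in CTRL 3. Olfactory receptor genes resemble each other, so reads of OR7C1 may be split among them.

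Another 7 human genes rose in share. EDN1, which encodes the secreted peptide endothelin-1, was counted in 24.9%, 34.96% and 33.8% of CTRL cells and in 38.5%, 61.3% and 44.8% of RKIP cells (log2 ratio 0.59, SE 0.12, edgeR adjusted p = 0.00183). Its sums were also apart, at 111, 79.6 and 109 CPM against 186, 208 and 179 CPM. NR4A3, an orphan nuclear receptor and immediate-early gene, rose from 7.88%, 6.10% and 5.06% to 13.5%, 25% and 7.88% (1.19, SE 0.29, adjusted p = 0.0484), with RKIP 3 no higher than CTRL 1. SKIL, a repressor of SMAD proteins in TGF-beta signalling, rose from 29.5%, 46.3% and 43.5% to 51.5%, 64.8% and 49.0% (0.44, SE 0.10, adjusted p = 0.0484). TLE1, a corepressor of the Groucho family, rose from 9.96%, 26.0% and 22.8% to 23.5%, 36.3% and 39.4% (0.73, SE 0.17, edgeR adjusted p = 0.0224), with RKIP 1 within the CTRL range. PPP2R3C, a regulatory subunit of protein phosphatase 2A, rose from 21.6%, 37.0% and 32.9% to 38.1%, 51.6% and 44.4% (0.52, SE 0.12, edgeR adjusted p = 0.034). SERPINB9, an inhibitor of granzyme B, rose from 5.69% to 6.33% of CTRL cells to 8.85% to 19.1% of RKIP cells (1.22, SE 0.29, adjusted p = 0.0465). CALB2, which encodes the calcium-binding protein calretinin, rose from 12.03%, 13.4% and 13.9% to 13.5%, 33.6% and 27.0% (0.86, SE 0.21, adjusted p = 0.0484), with RKIP 1 within the CTRL range.

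The 4 genes that fell in share were LINC02582, KRT81, SPOCK1 and BST2. LINC02582, a long non-coding RNA, went from 41.5%, 50% and 49.4% of CTRL cells to 23.5%, 34.4% and 35.3% of RKIP cells (-0.64, SE 0.12, edgeR adjusted p = 5.68e-04), with no overlap of the arms. KRT81, a keratin of hair that some breast cancer cells express, went from 20.3%, 22.4% and 31.6% to 5.77%, 13.3% and 20.7% (-0.96, SE 0.21, edgeR adjusted p = 0.0113). RKIP 3 reached the level of CTRL 1, while within each experiment the RKIP tumour was lower. SPOCK1, a secreted proteoglycan of the matrix, went from 21.6%, 27.6% and 33.8% to 12.7%, 14.5% and 20.3% (-0.85, SE 0.19, adjusted p = 0.0142). BST2, an interferon-induced protein that tethers viruses at the membrane, went from 39.8%, 50.8% and 49.4% to 29.2%, 32.4% and 40.2% (-0.50, SE 0.11, adjusted p = 0.0255).

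Which experiments were in the fit decided many of these calls. Without experiment 2, whose RKIP tumour had the highest shares of EDN1, NR4A3 and CALB2, 5 genes were called, all of them from the 15, and EDN1 had 0.44 (edgeR adjusted p = 0.93). Without experiment 1 there were 9, of which 8 are from the 15, and LINC02582 had -0.51 (adjusted p = 0.242). Without experiment 3 there were 15, of which 10 are from the 15. Without the block 5 were called. SPOCK1, TLE1 and PPP2R3C lost their calls whichever experiment was left out. FAM133A kept a log2 ratio of 0.95 to 1.15 and PTPRN2 of 1.13 to 1.21 in each of these fits.

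Among the summed levels, 24 genes were taken for description by a rule: the smallest p among genes whose log2 CPM averaged 5 or more, the same direction in all 3 experiments and arms that do not overlap, up to 12 in each direction. The rule had 451 candidates, 253 higher and 198 lower, and these non-overlapping arms are part of the choice and no result. None but the transgene passed edgeR's adjusted threshold, and 7 of the 24 were also called in share. DESeq2 called 17 of the 24, all but ARPC2, GAPDH, ERRFI1, CA9, NDUFB9, SLC52A2 and C4orf48, which neither tool called.

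**Figure D2:**
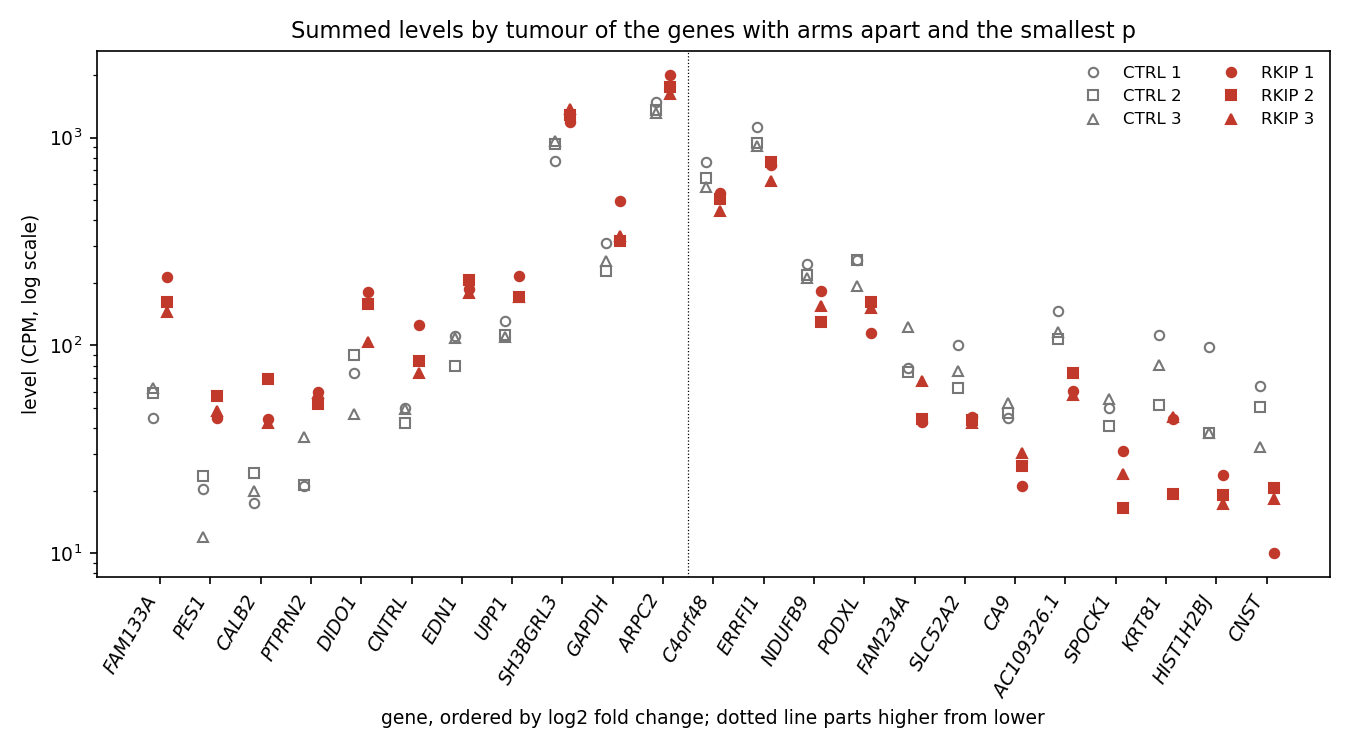
Summed level of 23 human genes taken by that rule, in CPM on a log scale, in each tumour; open grey marks are CTRL, filled red marks RKIP, and circles, squares and triangles are experiments 1, 2 and 3. Genes run from FAM133A (log2 fold change 1.64) to CNST (-1.59), and the arms do not overlap for any of them by the rule.

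On the higher side of these sums, SH3BGRL3, a small thioredoxin-like protein, was 771, 930.2 and 959.9 CPM in CTRL and 1183, 1289 and 1379 CPM in RKIP tumours (log2 fold change 0.54, SE 0.08, DESeq2 adjusted p = 0.0164). Nearly every cell had a count of it, with shares of 93.8% to 98.8% in CTRL and 98.5% to 100% in RKIP tumours, so this difference lay in the counts per cell. ARPC2, a subunit of the ARP2/3 complex that branches actin filaments, was 1488, 1358 and 1317 CPM against 2009, 1747 and 1625 CPM (0.37, SE 0.08). UPP1, which salvages uridine, was 132, 112 and 109 CPM against 216, 170.2 and 172 CPM (0.66, SE 0.13). PES1, a factor of ribosome assembly, was 20.5, 23.4 and 12.01 CPM against 44.7, 56.8 and 48.4 CPM (1.47, SE 0.28). A single cell held 32.8% of its counts in CTRL 1 and 32.1% in RKIP 1, and its shares of 6.64% to 16.3% and 9.62% to 19.1% overlapped. DIDO1, a chromatin reader protein, was 73.9, 89.8 and 47.0 CPM against 181, 158 and 104 CPM (1.08, SE 0.17), but 1 cell held 53.6% of its counts in RKIP 2, and its shares of 17.4% to 39.0% and 26.5% to 43.2% overlapped. CNTRL, a protein of the centriole, had 0.96 (SE 0.22). The glycolytic enzyme GAPDH had 0.51 (SE 0.11), and its many processed pseudogenes can take some of its reads.

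On the lower side, ERRFI1, a feedback inhibitor of the EGF receptor, was 1128, 942 and 913 CPM in CTRL and 736, 763 and 621 CPM in RKIP tumours (log2 fold change -0.49, SE 0.10). It was counted in 89.2% to 97.6% of the cells of all tumours, and the difference lay in the counts per cell. CA9, a carbonic anhydrase induced by hypoxia, was 44.9, 47.1 and 52.9 CPM against 21.1, 26.3 and 30.5 CPM (-0.91, SE 0.23), while its shares of 14.5% to 32.9% and 12.7% to 28.6% overlapped. PODXL, a sialomucin of the cell surface, was 259, 259 and 194 CPM against 115, 161 and 152 CPM (-0.73, SE 0.18, DESeq2 adjusted p = 0.0422). A single cell held 36.5% of its counts in CTRL 1 and 28.0% in CTRL 3, and its shares of cells overlapped between arms. NDUFB9, a subunit of respiratory complex I, was 246, 219 and 211 CPM against 184, 129 and 154 CPM (-0.55, SE 0.13). SLC52A2, a riboflavin transporter, was 62.6 to 100.04 CPM in CTRL and 42.1 to 45.3 CPM in RKIP tumours (-0.83, SE 0.21). The histone gene HIST1H2BJ had -1.39 (SE 0.29), with 98.2 CPM in CTRL 1 and 37.8 and 38.1 CPM in the other CTRL tumours, and its reads may be divided with other histone genes of nearly the same sequence. AC109326.1, FAM234A, C4orf48 and CNST complete this side, from -0.41 (C4orf48) to -1.59 (CNST).

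No gene of the pathway that RKIP acts on was called, in level or in share. Of 18 genes for RAF, MEK, ERK and their regulators, 0 were called and 0 had an unadjusted p under 0.05, against 4.01% of all genes, and the median log2 fold change was 0.21 beside 0.0029 over all genes. ARAF, a kinase of the RAF family, was 13.03, 15.6 and 11.9 CPM in CTRL and 15.9, 18.9 and 32.5 CPM in RKIP tumours (0.67, SE 0.38, edgeR adjusted p = 0.973). Its arms did not overlap in level, while its shares of cells overlapped. Of 20 genes that report ERK output, such as the feedback phosphatases, 0 were called and 0 had an unadjusted p under 0.05, with a median of -0.02. EMP1, a membrane protein, had 0.29 (SE 0.13), the transcription factor ETV1 -0.38 (SE 0.17), the cyclin gene CCND1 0.21 (SE 0.12) and the AP-1 subunit FOSL1 0.23 (SE 0.14). Of 14 genes of the EGF receptor family and its ligands, 0 were called, with a median of 0.07. HBEGF, a ligand of that receptor, was 169, 148 and 182 CPM against 243, 233 and 186 CPM (0.40, SE 0.16), the reverse of ERRFI1.

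Among the lists, that of immediate-early genes had the most members with an unadjusted p under 0.05. NR4A3, described above, is not on it. Of 27 tested, 0 were called in level and 9 had an unadjusted p under 0.05, all higher, against 2.2% of all genes, and the median over the list was 0.07. PLK2, a kinase of the stress response, was 524, 322 and 420 CPM in CTRL and 691, 506 and 638 CPM in RKIP tumours (0.55, SE 0.10), higher in each experiment although the arms overlapped. ATF3, a stress-induced transcription factor, was 173, 207 and 276 CPM against 311, 318 and 339 CPM (0.59, SE 0.14), and NR4A2, an orphan nuclear receptor, was 87.6, 92.2 and 99.4 CPM against 123, 138 and 158 CPM (0.58, SE 0.15). GADD45B, KLF10, KLF4 and FOSB had 0.44 (SE 0.14), 0.65 (SE 0.22), 0.63 (SE 0.24) and 0.31 (SE 0.10). In experiment 3 the difference was small for several of them, as for KLF4 at 91.7 CPM in CTRL and 94.9 CPM in RKIP. EDN1 was the 1 member of the list called in share, and DESeq2 called EDN1 and PLK2 in level. The list was assembled with earlier results of these data known, and all 9 members are named because their values had been seen, so the count is a description. Dissociation of a tumour is known to induce such genes, and its part in the result was not tested; the heat shock genes, also known to respond to dissociation, had a median of 0.03 over 15 members, with 1 at an unadjusted p under 0.05 (HSPA4L, 0.63, SE 0.22).

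**Figure D3:**
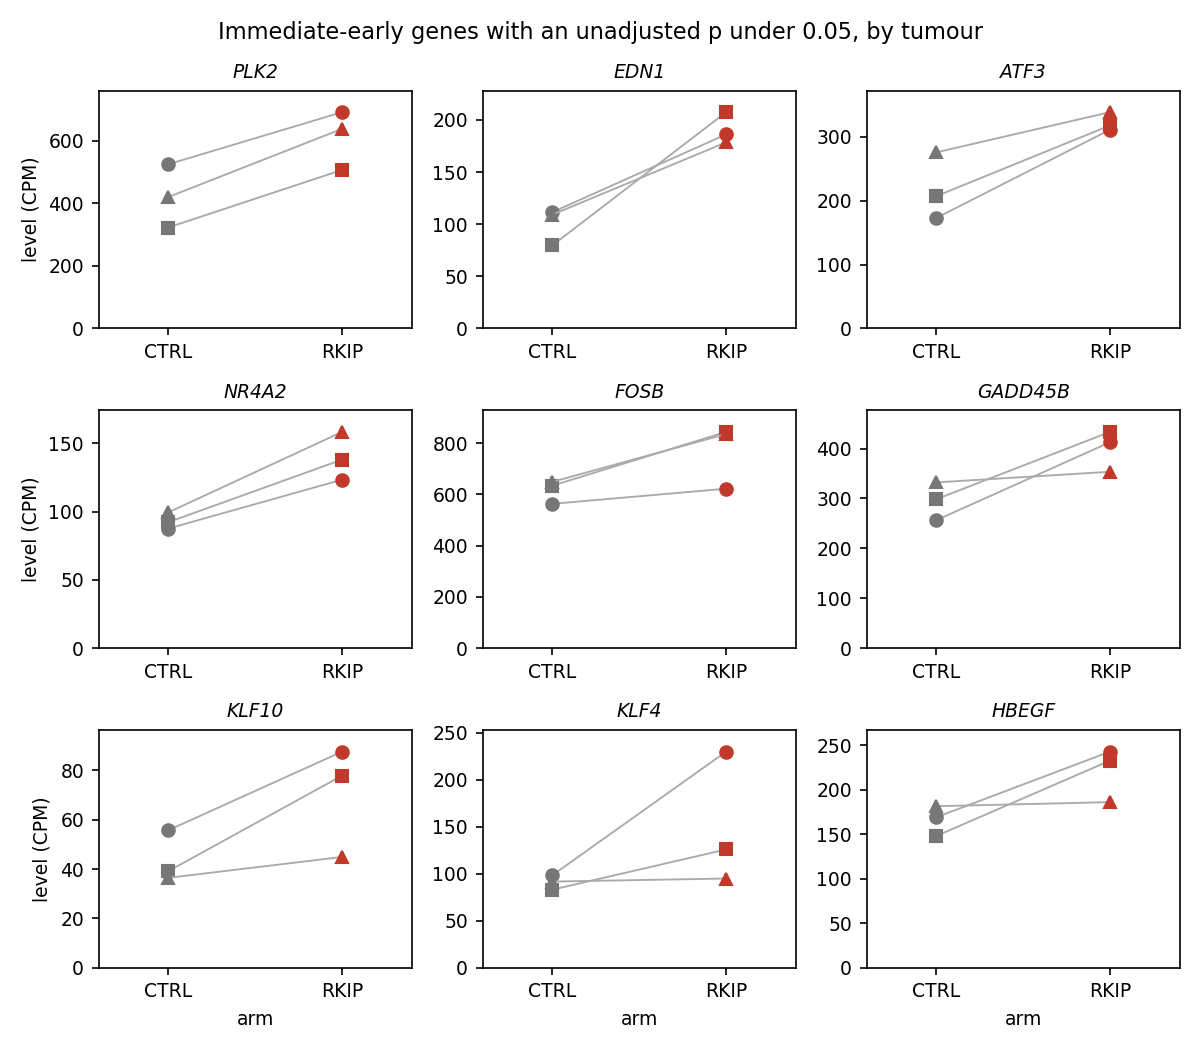
Summed level in CPM of the 9 immediate-early genes with an unadjusted p under 0.05, by arm; a line joins the CTRL and the RKIP tumour of an experiment, and circles, squares and triangles are experiments 1, 2 and 3. All 27 lines rise, by little for KLF4, HBEGF and GADD45B in experiment 3.

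Promoters are shown for FAM133A, the human gene with the smallest edgeR p in share, and for PLK2 and NR4A3, in which a motif was found; NR4A3 is an immediate-early gene outside the list of 27. Each is the 250 bases before the start site (RefSeq, GRCh38.p14), read 5′ to 3′ on the strand of the gene. The windows were searched on both strands for the AP-1 motif TGANTCA, the cyclic AMP response element TGACGTCA and its core TGACGT, which overlaps the full element. Capitals mark the core. FAM133A (chrX:93673956-93674205, plus strand) had no match, PLK2 (chr5:58460087-58460336, minus strand) had 1 and NR4A3 (chr9:99821635-99821884, plus strand) had 3.
FAM133A: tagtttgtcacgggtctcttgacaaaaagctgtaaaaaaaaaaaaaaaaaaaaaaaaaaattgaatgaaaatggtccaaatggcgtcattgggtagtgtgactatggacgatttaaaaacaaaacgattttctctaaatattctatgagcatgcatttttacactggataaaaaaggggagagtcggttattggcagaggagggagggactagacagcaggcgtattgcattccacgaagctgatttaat
PLK2: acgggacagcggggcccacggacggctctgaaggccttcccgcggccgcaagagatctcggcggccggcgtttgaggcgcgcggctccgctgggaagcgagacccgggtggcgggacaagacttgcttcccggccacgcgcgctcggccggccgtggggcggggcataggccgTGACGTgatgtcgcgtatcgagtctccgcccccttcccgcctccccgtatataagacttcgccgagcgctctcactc
NR4A3: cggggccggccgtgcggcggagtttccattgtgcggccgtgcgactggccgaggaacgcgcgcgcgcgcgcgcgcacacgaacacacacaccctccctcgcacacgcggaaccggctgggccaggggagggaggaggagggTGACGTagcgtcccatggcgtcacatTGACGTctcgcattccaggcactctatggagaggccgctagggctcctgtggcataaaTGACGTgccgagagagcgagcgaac

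The core was found in 2494 of 35116 windows of the same length (7.1%), the full element in 1.65% and AP-1 in 6.57%. Of 21 genes of the immediate-early list with a window, which leaves out NR4A3, 7 had the core, 3 the full element and 0 AP-1. Such a match is a description of letters and not a measured site. The core ended 72 bases before the start in PLK2 and 104, 78 and 20 bases before it in NR4A3.

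**Figure D4:**
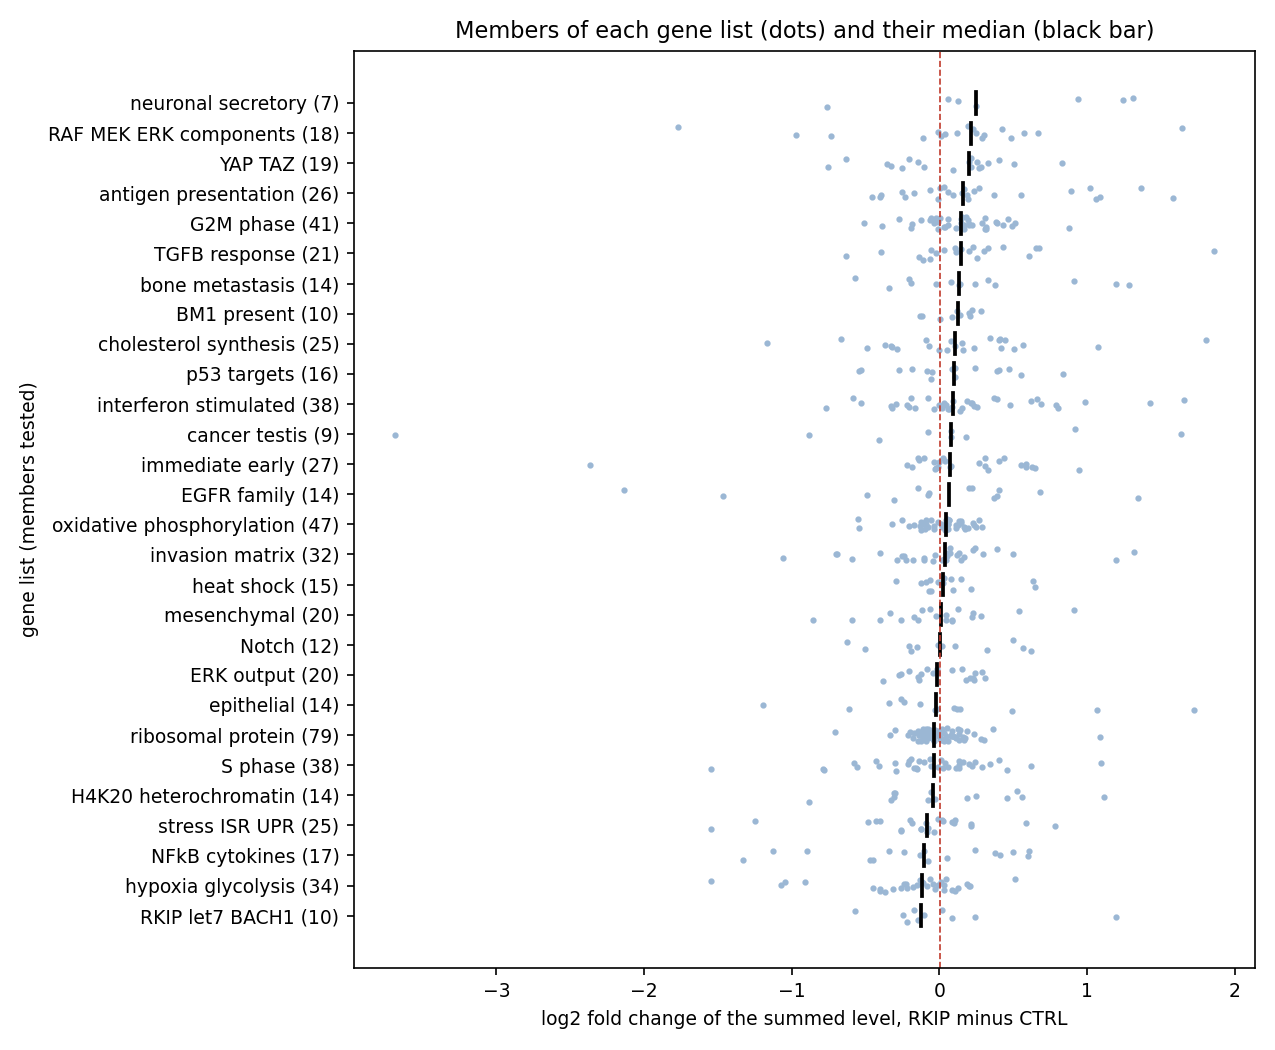
Log2 fold change of the summed level, RKIP minus CTRL, of the tested members (dots) of the lists with at least 5 of them, with the median as a black bar; the number of members tested stands beside each name and the dashed red line is the median of all genes. Medians run from -0.12 for the RKIP, let-7 and BACH1 genes to 0.25 for the neuronal and secretory genes.

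Among genes placed downstream of RKIP in metastasis, none of those tested was called by edgeR in level or in share. BACH1, a transcription factor that promotes metastasis and a target of the microRNA let-7, was 244, 128 and 120.3 CPM in CTRL and 157, 124 and 115 CPM in RKIP tumours (a log2 difference of -0.25, SE 0.17, edgeR adjusted p = 0.973). HMGA2, another let-7 target, was 88.6, 104 and 62.0 CPM against 74.0, 76.0 and 75.5 CPM (-0.14, SE 0.21). MMP1, a collagenase, was 18.3, 21.5 and 19.2 CPM against 236, 35.1 and 12.9 CPM, and in RKIP 1 a single cell held 96.3% of its counts. CXCR4, a chemokine receptor of bone-homing cells, was 6.48 to 16.9 CPM against 6.28 to 7.53 CPM (-0.57, SE 0.51), and 1 cell held 59.7% of its counts in CTRL 1 and 60.7% in RKIP 1. Of 10 genes tested in this list 0 were called, and LIN28B and OPN3 had no entry in the count table. Of 14 bone metastasis genes 0 were called, and RUNX2, a transcription factor of bone, was 2.54, 2.53 and 3.31 CPM against 6.57, 6.28 and 7.47 CPM (1.28, SE 0.57), with 70.3% of its counts in RKIP 1 in 1 cell. The general markers VIM (0.09, SE 0.08), CD44 (0.22, SE 0.14) and MKI67 (0.20, SE 0.15) overlapped between arms.

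Of 26 antigen presentation genes 0 were called, 4 had an unadjusted p under 0.05, all higher, against 2.2% of all genes, and the median was 0.16. These 4 belong to MHC class II. CD74, its invariant chain, was 435, 249 and 416 CPM in CTRL and 602, 372 and 635 CPM in RKIP tumours (0.55, SE 0.10), higher in each experiment. HLA-DRA was 15.2, 25.3 and 21.3 CPM against 35.2, 47.8 and 44.4 CPM (1.06, SE 0.24), HLA-DRB1 had 0.89 (SE 0.28) and HLA-DMA 1.02 (SE 0.33), all with arms apart. DESeq2 called CD74 and HLA-DRA. Class II genes also mark leukocytes of the host. Of the host leukocyte list LAPTM5 was 80.4 to 126 CPM in CTRL and 94.1 to 113 CPM in RKIP tumours (0.11, SE 0.18), but how far mouse transcripts were counted is not known. The part of host cells in the result was not tested.

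Of 38 interferon-stimulated genes 0 were called in level, and the median was 0.09. At an unadjusted p under 0.05, 4 were higher and 1 lower, against 2.2% and 1.8% of all genes. IFIT2, which binds viral RNA, was 72.9, 75.6 and 102 CPM in CTRL and 485, 93.3 and 378 CPM in RKIP tumours (1.66, SE 0.44). IFIT3 was 198, 159 and 124 CPM against 529, 170 and 336 CPM (0.99, SE 0.28). Both were high in RKIP 1 and 3 and within the CTRL range in RKIP 2, and 1 cell held 65.0% of the IFIT2 counts of CTRL 3. OASL, an antiviral protein, was 66.7, 37.6 and 59.9 CPM against 104, 63.1 and 118 CPM (0.79, SE 0.18), but 1 cell held 52.0% of its counts in RKIP 3. Its share of cells differed by a log2 ratio of 0.02 (edgeR adjusted p = 0.996). DESeq2 called IFIT3 and OASL. BST2, of the same list, was the 1 member called in share, and it fell.

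Of 9 cancer-testis genes tested, 0 were called in level and 3 had an unadjusted p under 0.05, against 4.01% of all genes. FAM133A stood highest at 1.64. CTAG2 stood lowest, at 2.85, 19.8 and 28.6 CPM in CTRL and 0.270, 2.21 and 1.26 CPM in RKIP tumours (-3.69, SE 0.54, edgeR adjusted p = 0.973), and DESeq2 called it (adjusted p = 1.55e-07). It has near-identical copies, so its value is uncertain, and 1 cell held 63.4% of its counts in CTRL 1, 93.2% in RKIP 2 and 75% in RKIP 3. SPANXB1, the most abundant of them, was 9239 to 11266 CPM against 9421 to 13109 CPM (0.18, SE 0.07). Among 14 genes of histone H4 lysine 20 methylation and heterochromatin 0 were called, with a median of -0.04. KMT5A, which adds the first methyl group, was 46.5, 35.4 and 35.2 CPM against 74.7, 55.5 and 41.8 CPM (0.53, SE 0.22), KMT5B had -0.33 (SE 0.24) and KMT5C was at most 2.77 CPM in any tumour.

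Proliferation and metabolism lists gave 0 calls in level and in share. The median was 0.15 over 41 G2 and M phase genes, 28 of which were above 0, and -0.04 over 38 S phase genes, and without experiment 1 the former was 0.05. Over 34 hypoxia and glycolysis genes it was -0.12, with 11 above 0; PDK1, which turns off pyruvate dehydrogenase, was 36.1, 32.7 and 25.8 CPM against 13.1, 14.5 and 17.3 CPM (-1.08, SE 0.31), and the glycolytic enzyme TPI1 was 3627 to 3881 CPM against 4270 to 4331 CPM (0.21, SE 0.06). Over 25 cholesterol synthesis genes the median was 0.10 and 3 had an unadjusted p under 0.05, all higher, against 2.2% of all genes. Among them were SC5D (1.81, SE 0.54, with 63.3% of its counts in RKIP 1 in 1 cell) and HMGCS1 (1.07, SE 0.38). The ribosomal proteins (79 members, -0.03) and nuclear genes of oxidative phosphorylation (47 members, 0.04) stayed near the median of all genes.

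Of 14 epithelial genes KRT81 was called in share, KRT19, a keratin of simple epithelia, had -0.26 (SE 0.10), and the median was -0.02. Of 32 invasion and matrix genes SPOCK1 was called in share, CTSZ, a lysosomal protease, had 1.32 (SE 0.45, with 83.9% of its counts in RKIP 2 in 1 cell), TIMP2, an inhibitor of matrix proteases, 0.30 (SE 0.12), and the median was 0.04. Of 20 mesenchymal genes 0 were called, with a median of 0.01. Of 21 TGF-beta response genes SKIL was called in share, and ID3, a target gene of SMAD proteins, had 1.86 (SE 0.66), with 60.5% of its counts in RKIP 3 in 1 cell, and the median was 0.15, with 14 of 21 above 0. Of 7 neuronal and secretory genes CALB2 was called in share, and SYT1, a calcium sensor of synaptic vesicles, was 20.3, 16.4 and 16.02 CPM against 44.1, 34.3 and 24.6 CPM (0.94, SE 0.27). The median of that list was 0.25, with 6 of 7 above 0. By edgeR 0 members were called in level or in share in the NF-kB, Notch, YAP and TAZ, p53 and stress lists, with medians from -0.10 (NF-kB) to 0.20 (YAP and TAZ). PLK2, which DESeq2 called, is also a member of the p53 list.

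The series title concerns the heterogeneity of expression, and the spread between cells was compared at 20000 counts per cell. The squared coefficient of variation over cells (CV2), on the log2 scale, was set against its trend on the mean gene by gene in each tumour, and the residuals were compared with limma over 10177 genes. No gene was called (0%, smallest limma adjusted p = 0.944), 387 had an unadjusted p under 0.05 (3.8%), and the arms did not overlap for 909 (8.93%). In simulated data this test called 0 of 100 genes whose residuals were shifted by 2 on the log2 scale. Of 100 genes shifted by 4 it called 39. The lack of calls therefore does not show that variation was equal in the 2 arms. The genes with the smallest p rested on few cells. GDAP2, a protein of neuronal differentiation, had residuals of 6.48, 5.22 and 3.48 in CTRL and 0.56, -0.58 and -0.10 in RKIP tumours (difference -5.10, SE 0.60). In the CTRL tumours 1 cell each held 94.8%, 75.6% and 49.6% of its counts. DPH2, an enzyme of diphthamide synthesis, had residuals of -0.35, -0.45 and -0.24 in CTRL and 1.71, 1.85 and 2.08 in RKIP tumours (2.23, SE 0.41), with 45.7% to 50.6% of the counts in 1 cell of each RKIP tumour. Of the 16 genes with the smallest p in either direction, 15 had a cell with over 25% of the counts in at least 1 tumour. PSME4, an activator of the proteasome, was the exception (2.10, SE 0.45), with at most 21.4% in 1 cell.

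Whole-tumour measures of heterogeneity followed the experiment more than the arm. The median log2 CV2 over genes was 4.22, 3.29 and 3.20 in CTRL and 4.01, 3.30 and 3.26 in RKIP tumours, a mean difference of -0.05 (exact two-sided sign-flip test over 3 pairs, p = 1). The median Spearman correlation between cells of a tumour was 0.326, 0.361 and 0.353 in CTRL and 0.341, 0.369 and 0.357 in RKIP tumours. Cells were thus more alike in the RKIP tumour of each experiment, by 0.00853 ± 0.00572 (SD of 3 pairs, exact p = 0.25, the smallest that 3 pairs allow). Median genes per cell were 2097, 3185.5 and 3289 in CTRL and 2292.5, 3131 and 3333 in RKIP tumours, higher in 2 of 3 experiments (mean difference 61.7, exact p = 0.75).

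**Figure D5:**
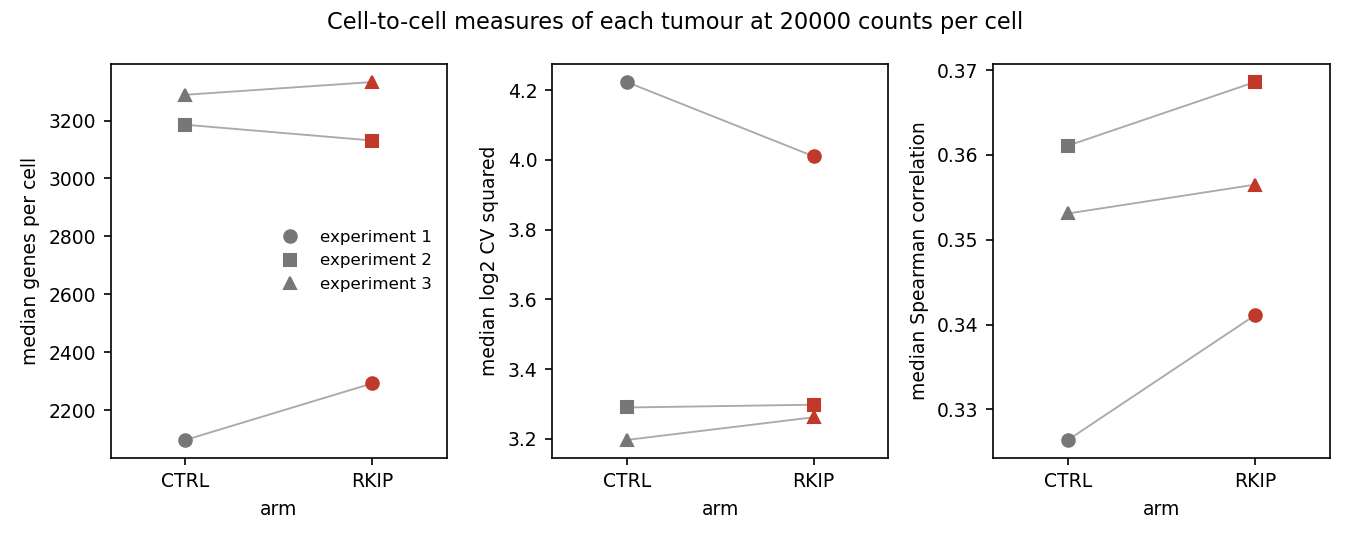
Median genes per cell, median log2 CV2 over genes and median Spearman correlation between cells, each at 20000 counts per cell, for the 6 tumours; lines join the tumours of an experiment, circles, squares and triangles are experiments 1, 2 and 3, and the vertical axes do not start at 0. Experiment 1 stands apart in all 3 panels, and the correlation is higher in the RKIP tumour of each experiment.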

How the data were processed

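Single cells of 6 BM1 tumours (3 CTRL, 3 RKIP) were measured by RNA sequencing on the C1 HT chip. The deposited values are whole-number counts per gene and cell. The submitters' processing notes name Trim Galore, STAR and featureCounts, with versions not given, and the builds hg19 and hg38, with roles not given. Strand and molecular identifiers are not given in the sources used here. The table held 15005 genes, each counted in at least 20 cells, and no mitochondrial genes. In 390 names a hyphen had been written as a dot, and these names were restored.

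The members of the comparison and all 35 gene lists were chosen with earlier results of these data known. Cells with at least 1000 genes were kept, and counts were summed per tumour. Sums were tested with edgeR 4.0.16 in R 4.3.3 (filterByExpr, TMM, robust quasi-likelihood fit, experiment as a block, Benjamini-Hochberg), and with DESeq2 1.42.0 as an alternative. The SE of a level or share was derived from the edgeR test, as the absolute log2 difference over the square root of its F statistic. The residuals of variation were tested with limma 3.58.1 at 20000 counts per cell, for genes with a mean of at least 0.1. The share of cells with a count, at 20000 counts per cell, was tested with edgeR and was added after the sums had been seen. Its main fit was scaled by TMM on each tumour's total of counted cells over genes, not by the number of cells. There 87 shallower cells (48 CTRL, 39 RKIP) were left out. No 2 cells had identical profiles. Floors of 3 counts and exact 95% intervals cover counting error only.

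The labels say that the CTRL and the RKIP tumour of an experiment were run together, which is the source of the pairing. Over 4743 genes, deviations from the arm means correlated at 0.05, -0.03 and -0.02 within experiments and at -0.04 to 0.07 between them. Named genes were called genes, up to 12 in each direction of the level rule given in the text, the study's own genes, up to 4 members a list with the smallest p, and up to 8 genes in each direction for variation. Alternatives were other scaling, filters, cell minimums, depths and tools, no block, and leaving out each experiment or tumour. Scripts were tested on simulated data. Some members of the lists are not reported here.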

Additional observations from a re-analysis of the deposited data

How the results depend on the processing

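For the levels, the number of genes called was 0 without the replicate block and 61 with DESeq2, and it was 0 to 1 when an experiment or a tumour was left out; the transgene was called again in the other settings run. For the shares of cells, 4 genes were called at 10000 counts per cell, 5 without the replicate block and 4 with the number of cells as the only scaling, and 5 to 15 when an experiment was left out. For variation, 0 genes were called with and without the replicate block. The cause of these changes was not tested.

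When an experiment or a tumour was left out, 7 values took the opposite sign. The difference in median log2 CV2 ran from -0.1025 to 0.0365 and that in median genes per cell from -5.25 to 119.75, in both cases turning without experiment 1. On the log2 scale BACH1 ran from -0.49 to 0.106 (turning without CTRL 1), HMGA1 from -0.128 to 0.146, HMGA2 from -0.358 to 0.013 (without experiment 2), VIM from -0.0138 to 0.235 (without RKIP 2) and MKI67 from -0.0204 to 0.381 (without CTRL 3). HMGA1 turned without experiment 2, experiment 3, CTRL 3 or RKIP 2, and to -0.072 in cells thinned to 20000 counts. MMP1 turned to -0.33 without the deepest 5% of cells. Of the alternatives for named genes, 542 kept the direction and side of the threshold for levels and 16 passed it only then, all with DESeq2, while the transgene lost its call in 8 (the one without the replicate block, and 7 with an experiment or a tumour left out); for shares 55 kept both and 63 lost the call. Of the list medians 489 stayed within their spread and 38 did not.

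With 3 pairs and 2 residual degrees of freedom, and a common dispersion of 0.242 in the sums, small differences in level could not be told from the spread between tumours. Arm, chip position and source line cannot be told apart.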

Other observations

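Genes were also taken in order along the chromosomes (GRCh38, positions from GENCODE 29), after their values had been seen. For 4726 genes the log2 ratio of RKIP to CTRL was taken in each experiment with 0.5 CPM added, and medians were formed over 282 windows of 30 genes, each shifted by 15. Of all genes, 15.5% were higher and 12.97% lower in all 3 experiments. Of the windows, 72 had medians above 0 in all 3 experiments and 32 below.

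The windows that stood highest lay on the long arm of chromosome 9. Over chr9:122144058-129835863, from NDUFA8 to C9orf78, the medians were 0.13, 0.18 and 0.24 in experiments 1 to 3, and 13 of 30 genes were higher in all 3. The window chr9:111360692-127578989, from ECPAS to FAM129B, overlaps it and had 0.13, 0.17 and 0.18. Over all genes of chromosome 9 taken the medians were 0.16, 0.13 and 0.10. The lowest window was chr12:104265309-111685986, from RPL18AP3 to BRAP, at -0.31, -0.11 and -0.13, with 9 of 30 genes lower in all 3, while chromosome 12 as a whole had -0.02, -0.03 and -0.01 over 255 genes. These are medians with no test.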
